A study of Mus musculus with 8 samples.

Results

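Transcripts of 41 genes for lysosomal enzymes and membrane proteins were followed in primary mouse keratinocytes (KCs), the epithelial cells of the epidermis, that were kept in culture for 1 or 3 weeks. The genes were selected by name and not by a threshold on measured values, although earlier results of these data were known when the list was made, and all 41 were found among the 41457 genes of the deposited tables. The list holds 11 cathepsins and other peptidases, 10 glycosidases, 4 sulfatases, 8 lipid enzymes, activators and carriers, 7 membrane proteins and the transcription factor gene Tfeb. Poly(A) RNA from 4 samples at 1 week and 4 samples at 3 weeks was sequenced. All 8 samples were untreated wildtype C57BL/6 KCs (C57BL/6J in the study's text) from the tail skin of adult mice, grown without serum at low calcium and split when nearly confluent. The labels name 1 genotype, 1 strain and 1 body site, give adult as the age, for which the study's methods name a range of some weeks for its mice in general, and do not say whether a preparation came from 1 mouse or from pooled mice. The file names carry preparation numbers, and 3 preparations (46, 49 and 90) occur at both times.

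Lysosomes are acidic organelles in which hydrolases break down proteins, glycans, nucleic acids and lipids delivered by endocytosis and autophagy. Proton pumps of the V-ATPase family acidify the lumen, heavily glycosylated proteins such as LAMP1 and LAMP2 line the membrane, and transcription factors of the MiT/TFE family, among them TFEB, can switch on many lysosomal genes through an E-box motif in their promoters. In KCs, cathepsins take part in the processing of epidermal proteins, and lipid hydrolases such as acid sphingomyelinase take part in the formation of the barrier. Glb1 encodes the lysosomal beta-galactosidase whose activity is widely stained as a mark of senescent cells, and the values below are RNA levels, not activities.

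The E-box CACGTG lies at the core of the motif that TFEB is known to bind, and other basic helix-loop-helix factors also bind it. Its reverse complement has the same letters, so 1 search covered both strands. Promoter windows of RefSeq genes on GRCm38.p6, from 250 bases before to 50 bases after the annotated start, were available for 37 of the 41 genes (not for Asah1, Ctsb, Ctsh and Npc1). Of these 37, 12 (32.4%) held at least 1 E-box, beside 8.09% of all 27025 genes with a window. The longer palindrome TCACGTGA, which contains the E-box, lay in the windows of 4 of the 37 genes (Ctsa, Ctsd, Gla and Mcoln1; 10.8%), beside 1.12% of all genes. The sequences below, in lower case with each E-box in capitals, are those of Lamp1, which held the largest number of E-boxes, of genes named in the results that follow, and of Mcoln1 and Gla for comparison with genes that did not pass the test for a change. They are written 5′ to 3′ on the strand of the gene.
Lamp1 (chr8:13159091-13159160, plus strand): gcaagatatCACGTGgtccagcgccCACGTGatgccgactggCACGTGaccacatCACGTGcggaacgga
Glb1 (chr9:114401018-114401047, plus strand): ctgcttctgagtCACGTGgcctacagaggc
Ctsd (chr7:142387908-142387937, minus strand): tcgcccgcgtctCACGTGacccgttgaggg
Ctsf (chr19:4855074-4855103, plus strand): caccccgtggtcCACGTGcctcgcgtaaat
Ctsa (chr2:164833749-164833778, plus strand): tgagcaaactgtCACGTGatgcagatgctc
Mcoln1 (chr8:3500462-3500491, plus strand): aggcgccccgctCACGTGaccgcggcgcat
Gla (chrX:134601182-134601211, minus strand): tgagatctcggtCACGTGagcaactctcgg
The windows of the 12 genes held 19 E-boxes, of which 18 lay before the RefSeq start and 13 within the 100 bases before it. The deposited gene coordinates place some starts further upstream. By these, the printed sites of Ctsd, Ctsa and Mcoln1 lay inside the gene (starts at 142388038, 164832873 and 3500457). So did the E-boxes of Ctsl and Naglu.

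**Figure D1:**
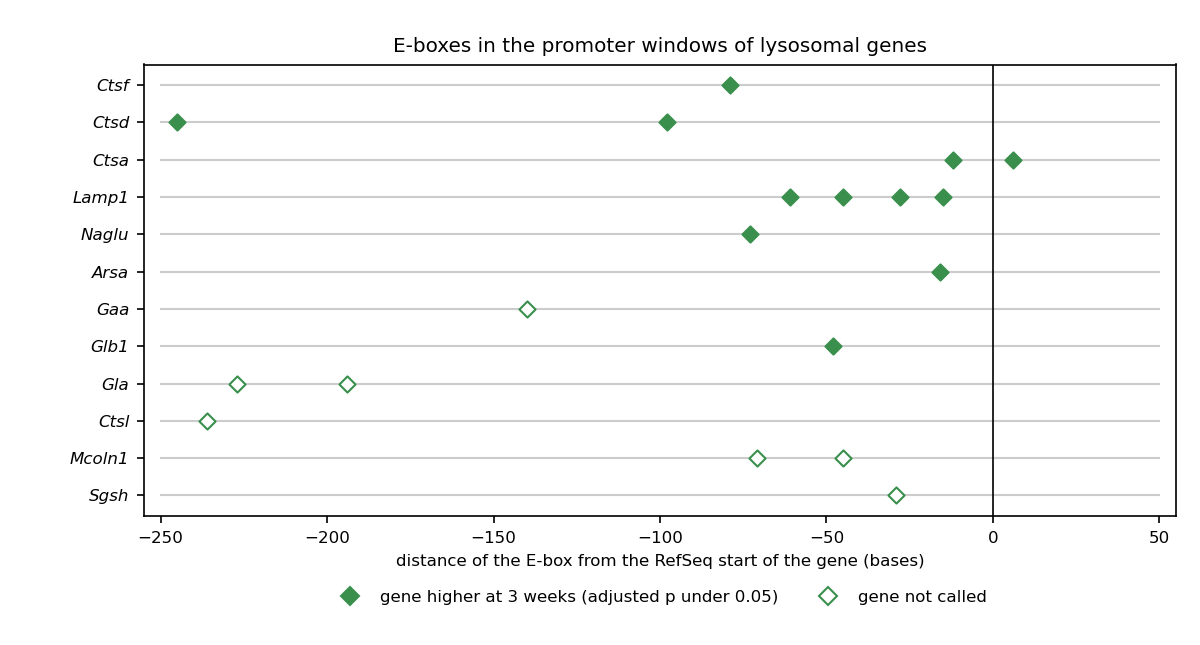
Position of each E-box (diamonds) relative to the RefSeq start of the gene, in bases, for the 12 lysosomal genes with an E-box in the window of 250 bases before to 50 bases after the start, ordered by log2 fold change. Filled diamonds mark genes that were higher at 3 weeks (edgeR, adjusted p under 0.05) and open diamonds genes that did not pass the test, and the 4 E-boxes of Lamp1 lie close together just before its start.

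Most of the lysosomal genes were higher in KCs cultured for 3 weeks. In edgeR's quasi-likelihood test with Benjamini-Hochberg adjustment over the 12590 genes with enough reads, all 41 genes were tested, 26 (63.4%) were higher at 3 weeks with an adjusted p-value under 0.05, 2 (Ctsc and Cd68) were lower, and 13 did not pass the threshold. Over all tested genes, 15.7% were higher and 17% were lower. The log2 fold change, 3 weeks over 1 week, was above 0 for 37 of the 41 genes and had a median of 0.63, beside a median of 0.03 over all tested genes. A rise of at least 2-fold that passed the threshold was seen for 7 of the 41 lysosomal genes, and for 917 of the 12590 tested genes (7.28%). On the RPKM scale, in which reads are scaled to exon length and sequencing depth, the 4 values at 3 weeks lay above the 4 values at 1 week for 21 lysosomal genes (51.2%), beside 10.8% of all tested genes, and below them for 2, beside 26.2%. Within the 3 preparations sampled at both times, 30 of the 41 lysosomal genes had a higher RPKM value at 3 weeks in each preparation, beside 24.3% of all tested genes. A lower value in each was seen for 3, for which the share over all tested genes was not computed. In a fit of these 6 samples with the preparation as a block, 1316 of all genes were higher, beside 1981 in the fit of all 8 samples. With the block, 20 of the lysosomal genes were higher and the same 2 were lower. Ctsh, Glb1, Arsb, Lipa, Smpd1, Asah1 and Gm2a then missed the threshold and Gaa passed it.

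Summed over the 41 genes, lysosomal transcripts took 0.624%, 0.608%, 0.703% and 0.668% of the exon reads in the 4 samples at 1 week and 1.04%, 1.05%, 0.923% and 1.14% in the 4 samples at 3 weeks. The groups did not overlap. Without Ctsd, the largest contributor in every sample, the shares were 0.507% to 0.543% at 1 week and 0.705% to 0.789% at 3 weeks. In bulk RNA, a change in the number of cells that express a gene and a change in the RNA per cell cannot be told apart. The libraries held 13896807 to 20026084 exon reads at 1 week and 14096649 to 18127283 at 3 weeks. Mitochondrial genes took 2.19% to 3.66% of the exon reads at 1 week and 3.73% to 4.43% in replicates 1, 2 and 4 at 3 weeks, but 13.3% in replicate 3. In deposited TPM values, which are scaled to exon length and to the same total in each sample, the summed lysosomal genes reached 4306 to 5370 at 1 week and 8627, 7894, 5188 and 9946 at 3 weeks, and replicate 3 of 3 weeks thus lay within the range of 1 week on that scale. With mitochondrial reads taken out of the total, its lysosomal share of exon reads was 1.06%, beside 1.08% to 1.19% in the other samples at 3 weeks and 0.627% to 0.720% at 1 week.

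**Figure D2:**
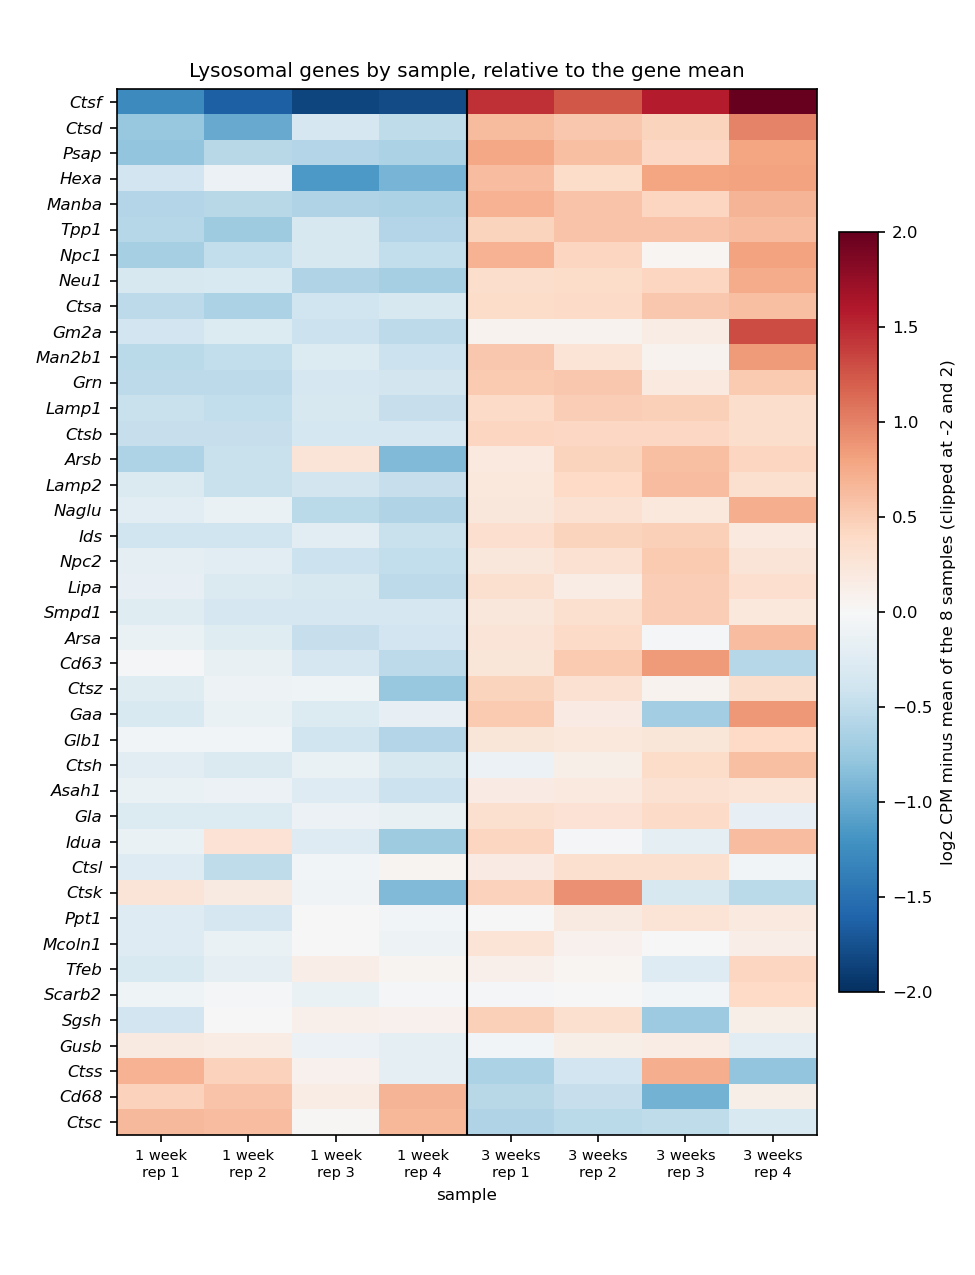
Log2 CPM (read counts scaled to the TMM-normalized library size) of each lysosomal gene in each sample, relative to the mean of that gene over the 8 samples, with blue for lower and red for higher values, clipped at -2 and 2. Samples are in columns and genes in rows, ordered by log2 fold change, and most rows pass from blue at 1 week to red at 3 weeks, except for Gusb, Ctss, Cd68 and Ctsc at the bottom.

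The samples of a group differed less among themselves than the groups did. Averaged over the 41 genes, log2 CPM (counts scaled to library size) deviated from the gene means by -0.27, -0.26, -0.29 and -0.40 in the samples at 1 week and by 0.29, 0.29, 0.24 and 0.41 at 3 weeks. The median coefficient of variation of RPKM was 10.8% at 1 week and 16.2% at 3 weeks. At 3 weeks, replicate 4 held the highest RPKM value for 25 genes and replicate 3 the lowest for 25 genes. RPKM values carry no correction for library composition. The median of all tested genes shifted by -0.16 on the log2(RPKM + 0.1) scale, and the median of the lysosomal genes on that scale was 0.46.

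Cathepsins are the main proteases of lysosomes. Of the 11 cathepsins and other peptidases, 7 rose, 1 fell and 3 did not pass the test, with a median log2 fold change of 0.58. Ctsf, which encodes the cysteine protease cathepsin F (ENSMUSG00000083282, chromosome 19, 4855129 to 4860912, plus strand, GRCm38), changed most of all 41 genes. It was at 2.39, 1.94, 1.66 and 1.69 RPKM at 1 week and at 15.2, 13.1, 14.3 and 26.6 RPKM at 3 weeks. The groups lay far apart, and replicate 4 of 3 weeks stood above the other samples of its group. The log2 fold change was 3.32 (standard error 0.26, adjusted p = 0.000184, edgeR), and leaving out single samples gave 3.07 to 3.44.

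Ctsd, which encodes the aspartic protease cathepsin D (chromosome 7, 142375911 to 142388038, minus strand), had the highest level per length of the 41 genes at both times. It was at 475, 415, 655 and 572 RPKM at 1 week and at 1168, 1097, 900.0 and 1528 RPKM at 3 weeks, and it ranked 82nd of all listed genes by mean RPKM at 1 week and 34th at 3 weeks. The groups did not overlap, and Ctsd rose by 1.30 on the log2 scale (standard error 0.20, adjusted p = 0.0018, edgeR). The exons of Ctsd overlap those of a predicted gene on the same strand, Gm49369. Few reads were counted as unique for Gm49369, and few for Tmppe, whose exons overlap those of Glb1. A low share of unique reads can thus come with overlapping genes and need not mean several sites in the genome. Of the Ctsd reads, 23.1% were counted as unique, and whether the others had several sites was not tested. Unique reads gave a log2 fold change of 1.22, and reads across exon junctions one of 1.32. Gm49369 itself was at 26.6 to 42.2 RPKM at 1 week and 29.5 to 109 RPKM at 3 weeks and did not pass the test.

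Ctsb, a cysteine protease that is also among the abundant cathepsins, was at 83.0, 86.6, 93.2 and 92.6 RPKM at 1 week and at 145, 144, 126 and 140 RPKM at 3 weeks. The rise of 0.81 on the log2 scale (standard error 0.11) came with narrow spread in both groups. Ctsa, the carboxypeptidase that protects beta-galactosidase and neuraminidase in a complex, was at 19.4, 18.8, 21.8 and 22.7 RPKM at 1 week and at 33.9, 34.2, 33.6 and 40.4 RPKM at 3 weeks, which amounts to 0.94 on the log2 scale (standard error 0.12). Tpp1, the tripeptidyl peptidase lost in a form of neuronal ceroid lipofuscinosis, was at 17.5, 16.5, 21.5 and 17.7 RPKM at 1 week and at 33.2, 36.3, 31.8 and 38.3 RPKM at 3 weeks, or 1.10 on the log2 scale (standard error 0.12). None of the 3 genes had values shared between the groups. Ctsz and Ctsh rose less and less surely, by 0.58 and 0.51 on the log2 scale, and their groups overlapped. Ctsz missed the threshold without replicate 1 or 4 of 1 week or replicate 1 or 2 of 3 weeks, at log2 fold changes of 0.44 to 0.58. Ctsh passed in 1 of the 8 fits with a sample left out, that without replicate 1 of 3 weeks, and was at 0.38 to 0.55 in the other 7.

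Ctsl, Ctsk and Ctss did not pass. Ctsl, known for the skin and hair changes of mice that lack it, was abundant at both times, at 157 to 226 RPKM at 1 week and 197 to 254 RPKM at 3 weeks, and its log2 fold change was 0.37 (standard error 0.17, adjusted p = 0.127, edgeR). Ctsk, best known from osteoclasts, and Ctss, best known from antigen-presenting cells, were rare. Ctsk stayed at 0.525 to 1.77 RPKM and Ctss at 0.501 to 1.55 RPKM over all samples, and each had at most 44 exon reads in a sample, so small changes in them were not detectable at this depth. Ctsc was the peptidase that fell. This gene for cathepsin C, also called dipeptidyl peptidase I, which activates serine proteases of granules, was at 10.01, 10.3, 6.74 and 10.3 RPKM at 1 week and at 3.96, 4.17, 3.72 and 4.94 RPKM at 3 weeks. The groups did not overlap, Ctsc was lower in each of the 3 shared preparations, and its log2 fold change was -0.996 (standard error 0.16, adjusted p = 0.00227, edgeR).

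**Figure D3:**
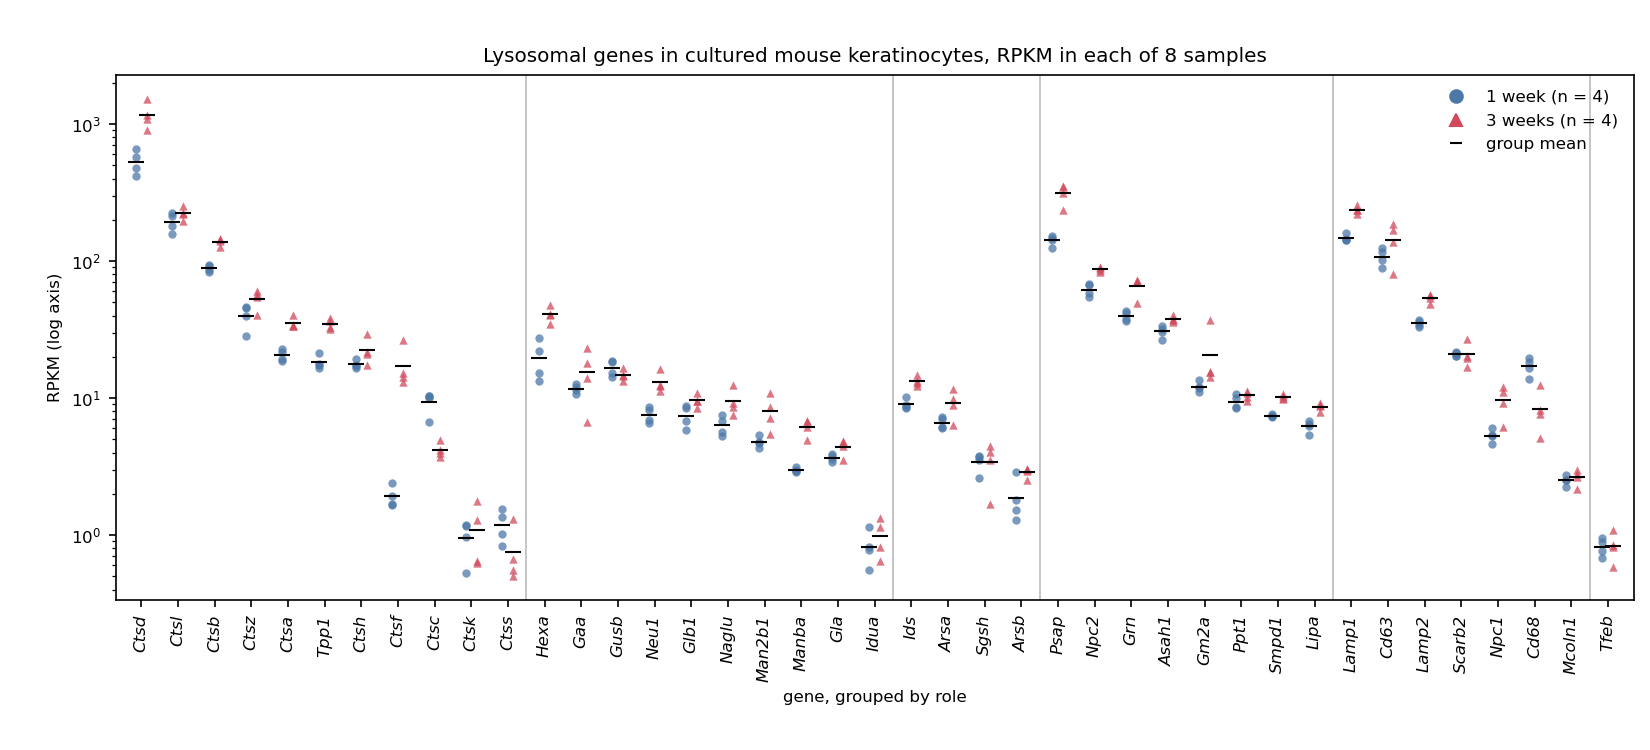
RPKM (log axis) of the 41 lysosomal genes in the 4 samples at 1 week (blue circles) and the 4 samples at 3 weeks (red triangles), with black bars at the group means and vertical lines between the classes of peptidases, glycosidases, sulfatases, lipid proteins, membrane proteins and Tfeb. The levels span more than 3 steps of the log axis, from Tfeb and Idua near 1 RPKM to Ctsd at 415 to 1528 RPKM, and the red values of Ctsf stand far above the blue ones.

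Glycosidases remove sugars from glycoproteins, glycolipids and glycosaminoglycans. Of the 10 in the list, 6 rose (Hexa, Manba, Neu1, Man2b1, Naglu and Glb1) and 4 did not pass the test, with a median log2 fold change of 0.64. Hexa, the alpha subunit of beta-hexosaminidase, was at 21.9, 27.5, 13.4 and 15.3 RPKM at 1 week and at 40.99, 34.8, 40.7 and 47.8 RPKM at 3 weeks. Its values at 1 week were scattered, yet all lay under those of 3 weeks, and the log2 fold change was 1.24 (standard error 0.23, adjusted p = 0.00409, edgeR). Manba, the beta-mannosidase, was almost constant at 1 week, at 2.95, 3.13, 3.00 and 2.90 RPKM, and reached 6.76, 6.20, 4.92 and 6.81 RPKM at 3 weeks. This rise was among the most precise of the group, at 1.20 on the log2 scale (standard error 0.11). Neu1, the lysosomal sialidase, was at 8.12, 8.60, 6.89 and 6.54 RPKM at 1 week and at 12.2, 12.4, 11.3 and 16.2 RPKM at 3 weeks, and its log2 fold change was 0.95 (standard error 0.14). Man2b1, the lysosomal alpha-mannosidase, was at 4.35, 4.66, 5.41 and 4.75 RPKM at 1 week and at 8.54, 7.19, 5.46 and 10.9 RPKM at 3 weeks. In Man2b1 the lowest value at 3 weeks, that of replicate 3, was just above the highest at 1 week, and the log2 fold change was 0.89 (standard error 0.18). Naglu, an enzyme of heparan sulfate breakdown, rose by 0.74 on the log2 scale (standard error 0.18).

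Glb1 (ENSMUSG00000045594, chromosome 9, 114401076 to 114474898, plus strand), the beta-galactosidase gene, rose by less than the median lysosomal gene. It was at 8.40, 8.71, 6.76 and 5.88 RPKM at 1 week and at 9.60, 9.51, 8.48 and 10.9 RPKM at 3 weeks. The groups overlapped, since replicate 3 of 3 weeks lay within the range of 1 week, although the value at 3 weeks was higher in each of the 3 shared preparations, by 1.14-, 1.41- and 1.85-fold. The log2 fold change was 0.53 (standard error 0.15, adjusted p = 0.0274, edgeR), a 1.44-fold rise that passed the threshold narrowly. It missed the threshold without replicate 3 or 4 of 1 week or replicate 1 or 2 of 3 weeks, with log2 fold changes of 0.48, 0.43, 0.54 and 0.55. Among the 41 genes Glb1 ranked 25th by mean RPKM at 1 week and 26th by log2 fold change. Its exons overlap those of Tmppe on the same strand, but 96.2% of the Glb1 reads were unique.

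The remaining glycosidases were the acid alpha-glucosidase gene Gaa, the alpha-galactosidase gene Gla, the alpha-iduronidase gene Idua and the beta-glucuronidase gene Gusb. Gaa was at 10.8 to 12.6 RPKM at 1 week and at 17.9, 14.01, 6.73 and 23.2 RPKM at 3 weeks, and 3 samples thus lay above and replicate 3 below all samples of 1 week. Its log2 fold change was 0.54 (standard error 0.28, adjusted p = 0.172, edgeR), and 0.74 without replicate 3 of 3 weeks, where it passed the threshold. Gla was at 0.43 on the log2 scale (standard error 0.16) and passed the threshold without replicate 4 of 3 weeks, at 0.54. Idua was at 0.553 to 1.33 RPKM over all samples. Gusb was at 14.3 to 18.7 RPKM at 1 week and 13.3 to 16.5 RPKM at 3 weeks, and its log2 fold change was -0.004 (standard error 0.14).

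Sulfatases remove sulfate groups from glycosaminoglycans and sulfolipids. Of the 4 sulfatase genes, 3 rose: Ids (log2 fold change 0.73, standard error 0.12), which encodes iduronate 2-sulfatase, Arsa (0.62, standard error 0.16) and Arsb (0.79, standard error 0.24), which encode arylsulfatases A and B. Ids was at 8.43 to 10.1 RPKM at 1 week and 12.3 to 14.6 RPKM at 3 weeks, without overlap, whereas the groups of Arsa and Arsb overlapped. Arsa missed the threshold without replicate 3 (0.57) or replicate 4 (0.58) of 1 week. Arsb, for which 53.3% of the reads were unique, missed it without replicate 1, 2 or 4 of 1 week or replicate 2 or 3 of 3 weeks, at 0.64 to 0.78. Sgsh, the N-sulfoglucosamine sulfohydrolase, was at 2.63 to 3.79 RPKM at 1 week and 1.70 to 4.45 RPKM at 3 weeks and did not pass, at 0.15 on the log2 scale (standard error 0.25).

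**Figure D4:**
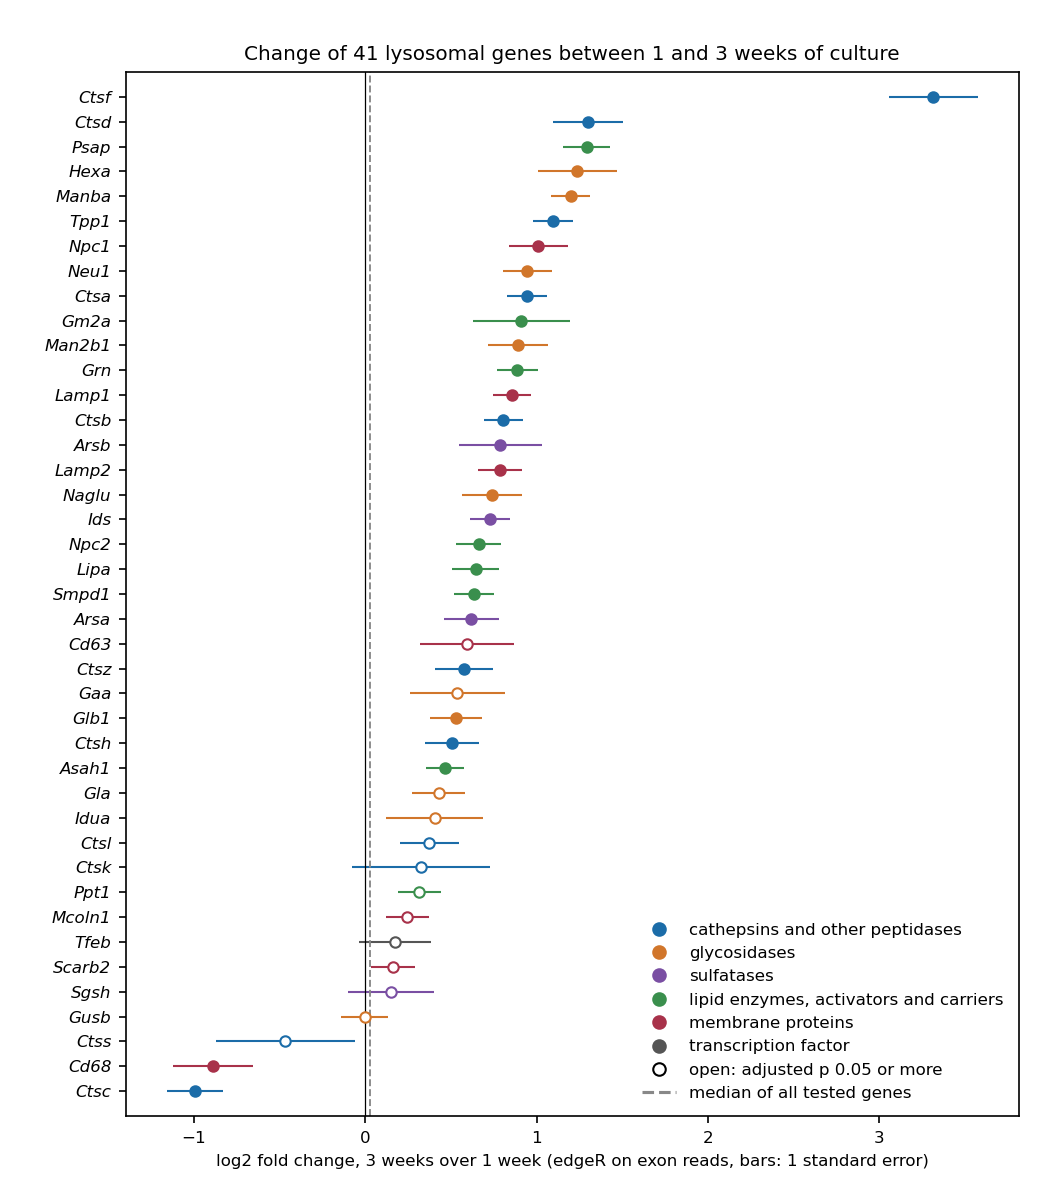
Log2 fold change, 3 weeks over 1 week, of the 41 lysosomal genes from edgeR on exon reads (n = 4 per group), coloured by class, with bars of 1 standard error. Filled points have an adjusted p under 0.05, the dashed line is the median of all 12590 tested genes (0.03), and 26 filled points lie to the right of it and 2, Cd68 and Ctsc, to the left.

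The lipid enzymes, activators and carriers degrade or move membrane lipids inside the lysosome. Of these 8 genes 7 rose, with a median log2 fold change of 0.65 over the class. Psap encodes prosaposin, the precursor of the saposins that present sphingolipids to their hydrolases, and was the second most abundant lysosomal gene per length at 3 weeks. It was at 125, 153, 148 and 141 RPKM at 1 week and at 345, 311, 238 and 355 RPKM at 3 weeks. The groups were clearly apart, and the log2 fold change was 1.29 (standard error 0.14, adjusted p = 0.000401, edgeR). Grn, which encodes progranulin, a partner of prosaposin in lysosomes, was at 36.6, 38.1, 42.9 and 41.5 RPKM at 1 week and at 70.6, 72.1, 49.8 and 72.2 RPKM at 3 weeks. Replicate 3 of 3 weeks was lower than the other 3, but above every sample at 1 week, and the log2 fold change was 0.89 (standard error 0.12). Gm2a, the activator protein for GM2 ganglioside breakdown by beta-hexosaminidase, was at 12.1, 13.5, 11.9 and 11.02 RPKM at 1 week and at 15.4, 15.6, 14.3 and 37.1 RPKM at 3 weeks. Its rise of 0.91 on the log2 scale (standard error 0.28, adjusted p = 0.0363, edgeR) was 0.50 without replicate 4 of 3 weeks and still passed, and it missed the threshold, at 0.86 to 0.95, without any 1 of the 4 samples at 1 week. Npc2, a soluble cholesterol carrier, Lipa, the acid lipase, Smpd1, the acid sphingomyelinase, and Asah1, the acid ceramidase, rose by 0.66, 0.64, 0.63 and 0.47 on the log2 scale, each without overlap between the groups and with standard errors of 0.11 to 0.14. Smpd1 had little spread, at 7.27 to 7.67 RPKM at 1 week and 9.90 to 10.7 RPKM at 3 weeks. Ppt1, a palmitoyl-protein thioesterase, was at 0.31 on the log2 scale (standard error 0.13) and did not pass.

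Of the 7 membrane proteins, 3 rose (Npc1, Lamp1 and Lamp2), 1 fell (Cd68) and 3 did not pass. Lamp1 (ENSMUSG00000031447, chromosome 8, 13159161 to 13175338, plus strand), whose promoter held 4 E-boxes, was at 142, 144, 159 and 144 RPKM at 1 week and at 237, 256, 222 and 237 RPKM at 3 weeks. Lamp2, which also serves in chaperone-mediated autophagy, was at 36.9, 34.3, 36.1 and 33.2 RPKM at 1 week and at 48.7, 56.1, 56.9 and 53.8 RPKM at 3 weeks. Both had little spread, did not overlap between the groups, and rose, by 0.86 (standard error 0.11, adjusted p = 0.000828, edgeR) for Lamp1 and 0.79 (standard error 0.13, adjusted p = 0.00223, edgeR) for Lamp2. Of the Lamp1 reads, 48.8% were unique, and these gave a log2 fold change of 0.80. Npc1, the membrane partner of Npc2 in cholesterol export, was at 4.61, 5.40, 6.01 and 5.25 RPKM at 1 week and at 11.04, 9.26, 6.19 and 12.1 RPKM at 3 weeks, a rise of 1.01 on the log2 scale (standard error 0.17). The value of replicate 3 of 3 weeks nearly met those of 1 week. The tetraspanin gene Cd63 was at 89.0 to 124 RPKM at 1 week and at 138, 170, 185 and 80.2 RPKM at 3 weeks, and replicate 4 thus lay below all other samples. Its log2 fold change was 0.59 (standard error 0.27, adjusted p = 0.128, edgeR), and 0.80 without that replicate, where it passed. Scarb2, which carries beta-glucocerebrosidase to lysosomes, and Mcoln1, a calcium channel, had log2 fold changes of 0.16 and 0.24 and did not pass.

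Cd68, a LAMP-family protein best known from macrophages, fell. It was at 16.5, 18.5, 13.7 and 19.5 RPKM at 1 week and at 7.60, 8.23, 5.09 and 12.5 RPKM at 3 weeks. The groups did not overlap and the log2 fold change was -0.89 (standard error 0.23, adjusted p = 0.018, edgeR). It missed the threshold without replicate 4 of 1 week (-0.82), replicate 1 of 3 weeks (-0.84) or replicate 2 of 3 weeks (-0.87). Markers of macrophages and Langerhans cells were near 0 in these cultures. The summed level of the 12 markers was 3.00 to 7.72 RPKM at 1 week and 3.10 to 7.66 RPKM at 3 weeks, Cd207 was at 0 in all samples, and no single marker exceeded 2.59 RPKM in any sample. Of the 5 markers with enough reads, 0 passed edgeR's test, DESeq2 or limma, and 0 had an unadjusted p-value under 0.05. The KC markers Krt5, Krt14, Trp63, Itga6, Itgb4 and Col17a1 summed to 12180 to 14439 RPKM at 1 week and to 7106 to 8278 RPKM at 3 weeks, with Krt5 and Itga6 lower at 3 weeks. Krt5 passed in each of the 8 fits with a sample left out, and Itga6 in 3 of them. The 6 markers of fibroblasts summed to 2.70 to 4.49 RPKM at 1 week and 2.30 to 4.65 RPKM at 3 weeks, and the 6 of melanocytes to 3.25 to 20.997 RPKM and 1.28 to 5.60 RPKM, with 1 of 4 tested markers, Pmel, lower. Pmel passed in 4 of the 8 fits with a sample left out, DESeq2 called 2 melanocyte markers, and 2, Pmel and Dct, had an unadjusted p-value under 0.05. The 3 endothelial and 4 T cell markers summed to under 1 RPKM in every sample, with Trac at 0. Of the 6 fibroblast and 2 endothelial markers with enough reads 0 passed edgeR, DESeq2 or limma, and 0 had an unadjusted p-value under 0.05. The part of melanocytes in the values of Cd63 and the other genes that melanosomes share with lysosomes was not tested.

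Tfeb (ENSMUSG00000023990, chromosome 17, 47737030 to 47792419, plus strand), the gene for the transcription factor, was the least abundant of the 41 genes at 1 week. It was at 0.686, 0.762, 0.958 and 0.890 RPKM at 1 week and at 0.852, 0.816, 0.580 and 1.09 RPKM at 3 weeks, or 54 to 91 exon reads per sample. The groups overlapped throughout, and the log2 fold change was 0.17 (standard error 0.21, adjusted p = 0.569, edgeR). TFEB is known to be controlled largely by its passage into the nucleus, which RNA levels do not show. Of the genes with an E-box in the promoter window 7 of 12 (58.3%) were higher at 3 weeks, and of those with a window but no E-box 15 of 25 (60%), with median log2 fold changes of 0.58 and 0.64.

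A list of 107 further genes of lysosome function was examined in the same fit. Of the 103 with enough reads, 56 were higher and 1 was lower at 3 weeks, and the median log2 fold change was 0.60. Over all tested genes, 15.7% were higher and 17% were lower. The number of list genes higher was 41 with the preparation block, beside 1316 of all genes. It was 45 with the replicate block, beside 1309 of all genes. The replicate block joins samples of the same replicate number, which are not of the same preparation for replicates 2 and 3. Among other lysosomal hydrolases 12 of 22 rose, led by Aga (1.54), the aspartylglucosaminidase, Hyal1 (1.54), a hyaluronidase, and Pla2g15 (1.37), a phospholipase. Aga was at 9.77 to 14.6 RPKM at 1 week and 28.0 to 34.8 RPKM at 3 weeks, whereas 3.37% of the Hyal1 reads were unique, which makes that value uncertain. Among other membrane proteins 8 of 14 rose, led by Ctns (1.49), the cystine exporter, Laptm4a (1.19), a membrane protein of late endosomes and lysosomes, and Mfsd8 (1.08), which is lost in a form of neuronal ceroid lipofuscinosis.

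V-ATPase subunits build the proton pump, and most of them rose. Of 18 subunit and accessory genes, 15 rose, beside 15.7% of all tested genes. Atp6v1c2 fell, Atp6v0a1 and Atp6v1c1 did not pass, and the median log2 fold change was 0.80. With the preparation block on the 6 shared samples 7 of the 18 rose, and with the replicate block 12. The largest rises were those of Atp6v0e2 (1.89, from 0.357 to 0.761 RPKM at 1 week to 1.25 to 2.43 RPKM at 3 weeks), the accessory gene Atp6ap1 (1.40, from 39.1 to 45.4 RPKM to 87.0 to 102 RPKM) and Atp6v1e1 (1.14, from 23.3 to 26.0 RPKM to 45.4 to 52.4 RPKM). Atp6v1c2, an isoform of subunit C with restricted expression, went the other way, from 5.22 to 7.74 RPKM at 1 week to 2.05 to 4.38 RPKM at 3 weeks, at a log2 fold change of -1.02 (SE 0.26, adjusted p = 0.0168, edgeR). It narrowly missed the threshold without replicate 4 of 1 week or replicate 2 of 3 weeks, and leaving out single samples gave -1.30 to -0.89.

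Of 10 genes that sort and mature lysosomal enzymes, 2 rose, a share near the 15.7% of all tested genes: Sort1 (1.83), which encodes the sorting receptor sortilin, and Sumf1 (0.95), which encodes the enzyme that activates sulfatases. At 3 weeks Sort1 was at 2.40, 2.23 and 2.23 RPKM in replicates 1 to 3 and at 6.44 RPKM in replicate 4. Leaving out single samples gave log2 fold changes of 1.34 to 1.99 for Sort1. The mannose 6-phosphate pathway genes Gnptab, Gnptg, Nagpa, M6pr and Igf2r were among the 8 that did not pass, and the median was 0.13. Igf2r, a receptor for mannose 6-phosphate, was at 1.12 on the log2 scale (standard error 0.47, adjusted p = 0.0975, edgeR) and passed with the preparation block. Among MiT/TFE factors and genes of lysosomal mTORC1 control, 5 of 16 rose, beside the 15.7% of all tested genes, and the median was 0.25. With either block 3 of 16 rose. Fewer of all genes also rose with either block, so the 15.7% is not the share to set beside these counts. Rragd, which encodes the GTPase RagD, was rare at 1 week, at 0.241 to 0.365 RPKM, and at 1.36 to 2.70 RPKM at 3 weeks, and rose by 2.73 on the log2 scale (standard error 0.27, adjusted p = 0.000363, edgeR). Flcn (1.02), the gene for folliculin, and Rragc (0.67), which encodes RagC, followed. Tfe3 and Mitf, the other factor genes of the list, did not pass, with log2 fold changes of -0.16 (standard error 0.12) and 0.08 (standard error 0.39).

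Autophagy delivers cell contents to lysosomes, and 12 of 19 of its genes rose, beside 15.7% of all tested genes, with a median of 0.72. Atg9b (1.74), a lipid scramblase, and Gabarapl1 (1.57) and Gabarapl2 (1.29), which coat autophagosome membranes, led. At 3 weeks Atg9b was at 14.5, 12.9 and 8.25 RPKM in replicates 1 to 3 and at 34.0 RPKM in replicate 4. Leaving out single samples gave log2 fold changes of 1.23 to 1.93 for Atg9b. Gabarapl1 was at 17.0 to 21.7 RPKM at 1 week and 49.9 to 52.4 RPKM at 3 weeks. Of the Gabarapl2 reads, 29.4% were unique. Of 4 cystatins with enough reads, inhibitors of cathepsins, Cstb (0.92) and Cst3 (0.50) rose. Cst3 passed in 1 of the 8 fits with a sample left out, that without replicate 4 of 3 weeks, and these fits gave 0.35 to 0.61. With the preparation block both missed the threshold (adjusted p = 0.0746 for Cstb and 0.216 for Cst3, edgeR). Cstb was at 254 to 352 RPKM at 1 week and 370 to 676 RPKM at 3 weeks, so it was more abundant per length than any cathepsin of the list except Ctsd.

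**Figure D5:**
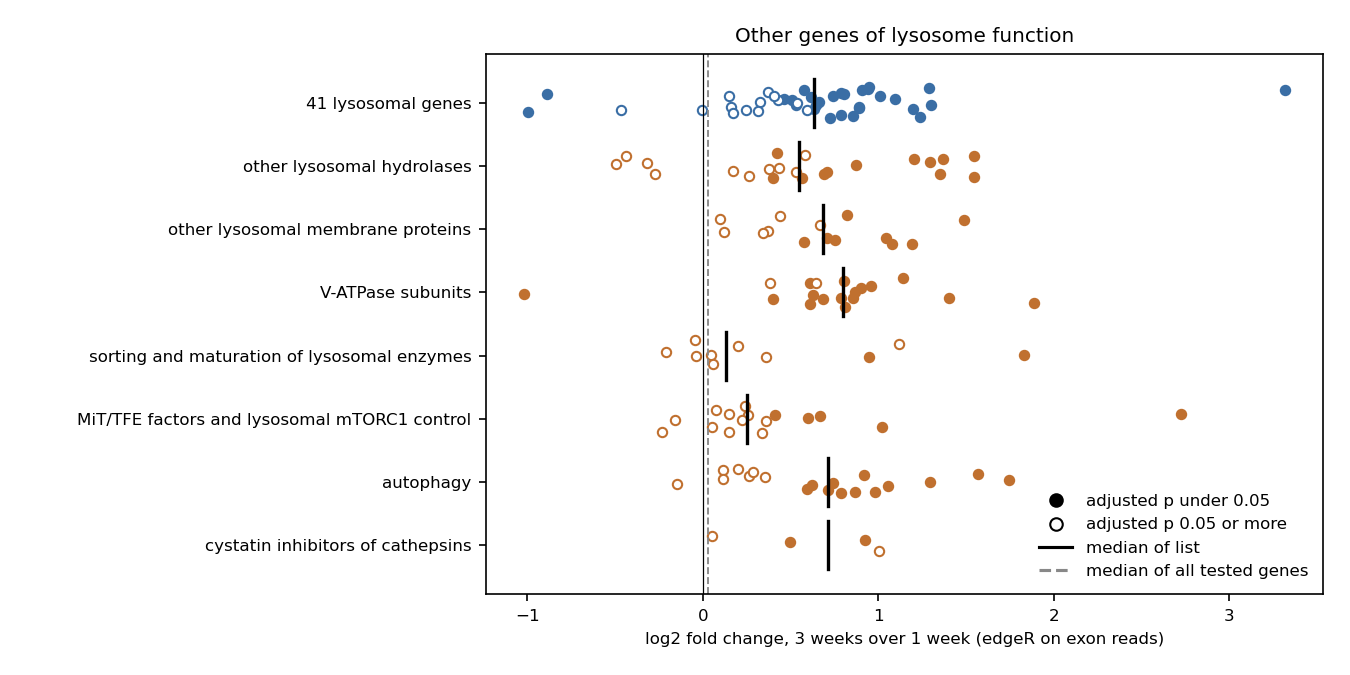
Log2 fold change, 3 weeks over 1 week, of the 41 lysosomal genes (blue, top row) and of 7 further lists of lysosome function (orange), with 1 point per gene, filled where the adjusted p was under 0.05, and black bars at list medians. The dashed line is the median of all tested genes (0.03), and the V-ATPase subunits lie to the right of it except for Atp6v1c2, while 7 of the 10 sorting genes lie between -0.21 and 0.36 and Sort1, Igf2r and Sumf1 further right.

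Reads on introns, which the exon values do not use, come in part from unspliced transcripts of the same libraries. They made up 1.48% to 2.38% of the reads on genes, and 10 of the 41 lysosomal genes had enough of them for a test among 4016 genes. Of these 10, 8 had a log2 fold change above 0, and the median was 0.46, beside 0.04 over all genes tested on introns. In edgeR's quasi-likelihood test 0 passed an adjusted p of 0.05 in either direction, beside 4.21% higher and 4.56% lower over all genes, and 1, Ctsd, had an unadjusted p under 0.05, beside 12.5% of all genes in that direction. The 2 largest values were those of Ctsd at 1.28 (adjusted p = 0.0882) and of Psap at 1.20 (adjusted p = 0.204). Glb1 had the most intron reads, up to 274 in a sample, and a log2 fold change of 0.48 (adjusted p = 0.34). Without replicate 3 of 3 weeks, Ctsd (1.57), Psap (1.58) and Hexa (1.58) passed. No difference was detectable for the other genes at this number of intron reads.

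Some values carry a limit from the counting. No source says whether reads were counted by strand, and 13 of the 41 genes overlap exons of a gene on the opposite strand, Lamp1, Grn, Hexa and Ctsb among them, so that reads from the partner cannot be told apart. Fewer than 80% of the reads were counted as unique for Ctsd, Sgsh, Arsb, Lamp1, Npc1 and Cd63, and at least 95% for 32 genes. With unique reads alone, the numbers of higher and lower lysosomal genes were again 26 and 2.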

How the data were processed

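Total RNA of mouse KCs cultured for 1 week (n = 4) or 3 weeks (n = 4) had been made into poly(A) libraries and sequenced. Per the labels and the paper's methods, the authors trimmed adapters and aligned reads to GRCm38 in the CLC Genomics Workbench with default settings. They deposited 1 gene table per sample with read counts (total and unique exon reads, reads on the gene, on introns and across exon junctions), not normalized. The deposited RPKM and TPM values are written with decimal commas. RPKM values are scaled to exon length and mapped reads, without correction for composition. The annotation release and the use of strand are not given in the sources used here.

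Total exon reads were fitted with edgeR 4.0.16 in R 4.3.3 (filterByExpr, minimum count 10, TMM, glmQLFit and glmQLFTest, all 8 samples, unpaired as in the study's statistics), with Benjamini-Hochberg adjustment over 12590 genes and a threshold of 0.05. Standard errors were derived from the F statistics. Intron reads were fitted alike. Nothing states that the samples came from separate mice. The paper says that it compared the same batches of KCs at both times, and 3 preparations occur in both groups. The unpaired fit treats the 8 samples as independent all the same. Its p-values thus do not measure the spread between independent preparations, and results with a preparation block are given beside them. The smallest chi-square per degree of freedom between replicates was 15.5, and each sample was counted once. On simulated counts for this comparison (12590 genes, 200 changed), 39.4% of 2-fold and 98% of 4-fold changes were recovered, with 6 false calls. The simulation changed far fewer genes than were called in the data and drew independent samples, so these rates need not hold for the data.

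The 41 genes and the lists were chosen with earlier results of these data known. Values in every sample were given for Glb1, Lamp1, Lamp2, Tfeb, the most abundant gene, and up to 14 largest rises and 10 largest falls among genes past the threshold. In the further lists up to 3 rises and 3 falls were named, and genes that did not pass only to complete a list. Coordinates are those of the tables on GRCm38, and 40 of 41 equal GENCODE M21 (not Ctsf). Alternatives were DESeq2 1.42.0, limma 3.58.1 on log2(RPKM + 0.1) or log2(RPKM + 1), upper-quartile normalization, no filter, other read classes, a replicate block, a preparation block, and each sample left out. Junction reads, the shared preparations without a block, and totals without mitochondrial genes were added after the data were seen. Figures were drawn with matplotlib 3.10.9.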

Additional observations from a re-analysis of the deposited data

Results flagged for a closer look

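In 6 of the 86 groups of 4 samples examined, 1 sample stood apart from the other 3 by a gap larger than Dixon's critical value, and chance gives about 1 in 20 such groups. At 3 weeks, replicate 4 was high for Ctsa (40.4 RPKM, others 33.6 to 34.2), Ctsf (26.6 RPKM, others 13.1 to 15.2) and Gm2a (37.1 RPKM, others 14.3 to 15.6), and replicate 3 was low for Grn (49.8 RPKM, others 70.6 to 72.2). At 1 week, replicate 3 was low for Ctsc (6.74 RPKM, others 10.01 to 10.3) and high for Lamp1 (159 RPKM, others 142 to 144). Ctsa, Ctsf, Grn, Ctsc and Lamp1 passed the threshold with each sample left out in turn.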

How the results depend on the processing

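The number of lysosomal genes higher at 3 weeks was 20 to 28 under the 19 alternatives (26 as reported). Under all of them 17 genes were called, Ctsc as lower and the others as higher: Ctsa, Ctsb, Ctsc, Ctsd, Ctsf, Grn, Hexa, Ids, Lamp1, Lamp2, Man2b1, Manba, Neu1, Npc1, Npc2, Psap and Tpp1. With a sample left out the number ranged from 20 to 27, the number lower from 1 to 2, the genes of the further lists higher from 44 to 56 and lower from 0 to 2, all genes higher from 1371 to 2284 and lower from 1631 to 2667, and lysosomal genes higher on intron reads from 0 to 3. The shared preparations without a block left 1 lysosomal gene lower. The further lists had 43 genes higher with limma at either pseudocount, and 8 of the 22 hydrolases with the replicate block. They had 2 genes lower with unique reads and 5 with limma at either pseudocount. All genes higher numbered 1981 as reported, beside 2146 lower, 1309 with the replicate block, 1316 with the preparation block, 1197 on junction reads, and 1313 and 1281 with limma on log2(RPKM + 0.1) and log2(RPKM + 1), where 3089 were lower with the smaller pseudocount. On intron reads, 1 lysosomal gene was higher with the preparation block and 2 without a filter. The median of the lysosomal genes was 0.46 and 0.42 with limma. DESeq2 added Gla and Ppt1. Directions turned for Gusb (0.0042 with DESeq2, -0.076 to 0.063 with a sample left out), on junction reads for Idua (-0.18) and Sgsh (-0.11), and with limma for Sgsh (-0.067 and -0.038), Scarb2 (-0.013 and -0.012) and Tfeb (-0.0015), none of which had passed. The cause was not tested.

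Deviations from the group means had correlations across genes of -0.21, -0.15, -0.13 and 0.24 between same-numbered samples. Between samples of a shared preparation they were -0.21, 0.21 and 0.24. So few correlations cannot exclude that samples were paired. The main fit had no block because the study's methods name unpaired tests. The replicate block joins samples of the same replicate number. For replicates 1 and 4 these are the same preparation. Replicate 2 is preparation 47 at 1 week and 49 at 3 weeks, and replicate 3 is 49 and 57. This block is thus not a pairing by preparation. With the replicate block 21 lysosomal genes were higher and 2 lower, and Ctsh, Ctsz, Glb1, Asah1 and Gm2a missed the threshold.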
